A study of Mus musculus with 10 samples.

Results

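The levels of 9 genes that make long noncoding RNAs (lncRNAs) were followed in muscle satellite cells (MuSCs) with and without the ion channel gene Trpm7: the nuclear lncRNAs Malat1 and Neat1, and the small nucleolar RNA (snoRNA) host genes Gas5, Zfas1, Snhg1, Snhg3, Snhg6, Snhg8 and Snhg12. They were chosen by name rather than by a threshold on any measured value, with earlier results of these data known. The count table held 24608 gene symbols and had an entry for 8 of the 9 genes. All 8 passed the filter on low counts together with the other genes among the 7753 tested. Snhg3 had no entry under its symbol and was not analysed here.

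Each genotype, control and Trpm7 cKO, was represented by 5 RNA-seq libraries, made from 3000 sorted YFP-positive cells apiece, taken 3 days after cardiotoxin (CTX) injury of skeletal muscle. Control mice were Trpm7+/+; Pax7CreERT2/+; Rosa26YFP and Trpm7 cKO mice were Trpm7flox/flox; Pax7CreERT2/+; Rosa26YFP. Both were adults of C57BL6 background and both had received daily tamoxifen, so the 2 groups share the Cre allele, the reporter, the drug and the injury. Cre is made under the control of Pax7, a gene of satellite cells, so deletion and YFP labelling are limited to cells that had expressed it. The comparison asks how the level of each lncRNA differs between MuSCs with and without Trpm7 in regenerating muscle.

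A snoRNA host gene is transcribed and spliced like a messenger RNA gene, but its snoRNAs are cut out of the introns and go on to guide chemical modification of ribosomal and other RNAs. What is left of the host, the spliced exons, carries short reading frames that ribosomes enter, and for several hosts, Gas5 and Snhg1 among them, the spliced RNA is removed by nonsense-mediated decay (NMD), a pathway coupled to translation. Many host genes start transcription at a C within a run of pyrimidines, the 5′ terminal oligopyrimidine (TOP) start also found in ribosomal protein genes, whose translation follows mTOR activity. Malat1 is among the most abundant lncRNAs of mammalian cells, stays in the nucleus at the speckles that store splicing factors, and ends in a triple helix in place of a poly(A) tail. Neat1 is made from the neighbouring locus, and its long form is the scaffold of paraspeckles, nuclear bodies that hold RNA-binding proteins such as NONO.

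The genes lie on chromosomes 1, 2, 3, 4 and 19 of GRCm38, in the GENCODE annotation of that build. Malat1 (chromosome 19, 5795690 to 5802672, minus strand) and Neat1 (chromosome 19, 5824708 to 5845478, minus strand) are 22036 bases apart, and the longest transcript of each has 1 exon. Gas5 (chromosome 1, 161034422 to 161038539, plus strand) holds 10 annotated snoRNA entries, each inside an intron of at least 1 of its transcripts. Snhg1 (chromosome 19, 8723475 to 8726443, plus strand) holds 8, Snhg12 (chromosome 4, 132308623 to 132311024, plus strand) 5, Zfas1 (chromosome 2, 167062934 to 167065862, plus strand) 3, and Snhg6 (chromosome 1, 9941959 to 9944118, minus strand) and Snhg8 (chromosome 3, 123507552 to 123508404, minus strand) 1 each. Snhg3 (chromosome 4, 132348014 to 132353686, minus strand) holds 2, and 5592 of its bases overlap the protein-coding gene Rcc1 on the same strand.

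The start sites are shown because the TOP start is the sequence feature by which snoRNA hosts are often grouped. RefSeq windows of build GRCm38.p6 were matched by symbol for 7 of the 9 genes, and those of the measured snoRNA hosts are printed from 10 bases before the start site, on the strand of the gene. Capitals mark the unbroken run of pyrimidines that begins at the start site, and a window with no capitals starts at a purine.
Gas5, first window, chr1:161034591-161034620: gcgggcccgcgagctcgacagcccggagcc
Gas5, second window, chr1:161035156-161035185: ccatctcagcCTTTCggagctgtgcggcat
Snhg8, chr3:123508317-123508346: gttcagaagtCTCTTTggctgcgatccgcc
Snhg12, chr4:132308668-132308697: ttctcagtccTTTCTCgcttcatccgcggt
Snhg1, chr19:8723477-8723506: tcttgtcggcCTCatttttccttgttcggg
Zfas1, chr2:167062924-167062953: tgcgccccgggcggccgcaggtctcggctg

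A C at the annotated start followed by at least 4 more pyrimidines was found in the second Gas5 window and in Snhg8, and in 2.51% of the 32851 windows of all genes, searched at the start site on the gene's own strand only. The annotated start of Snhg12 is a T that begins a run of 6 pyrimidines, and the bases directly before it are pyrimidines too. That of Snhg1 is a C with a run of 3. Matches at other bases than the annotated start were not searched.

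As the libraries differ in depth, the totals come first. Control libraries held 914353 to 1097707 counts and Trpm7 cKO libraries 205980 to 581117, or 336 ± 26.3 and 143 ± 55.9 (SD, n = 5 each) counts per sorted cell. Reads of the mitochondrial genome made up 12.0% to 16.5% of control and 8.82% to 10.6% of cKO counts. Pax7 was read in every library (101 to 296 counts). Relative to all RNA in the library, Pax7 was higher in cKO (log2 fold change 1.19, adjusted p = 2.4e-05, edgeR) and Myod1 was lower (−2.01). Trpm7 itself did not differ detectably (log2 fold change −0.09, adjusted p = 0.723), and reads at the 3′ end do not test a deletion further upstream. The summed level of 40 leukocyte markers was 854.6 to 1190 CPM (counts scaled to a library of 1e6) in control and 2071 to 9170 in cKO libraries, and that of 12 endothelial markers 7.03 to 76.6 and 154.6 to 708.8. All 40 and all 12 markers had counts in cKO libraries, and all but 3 of the 40 and all 12 had counts in control libraries. Ptprc had 4 to 15 counts in control and 10 to 59 in cKO libraries, and Pecam1 0 to 15 and 8 to 51. The sum of 14 fibroadipogenic markers overlapped, at 2901 to 4381 and 3287 to 6642 CPM. In sorted populations, fewer cells of a type and less RNA per cell cannot be told apart.

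Relative to all RNA in the library, Trpm7 cKO MuSCs had more Malat1, Gas5 and Snhg12 and less Snhg1 than control MuSCs. Per sorted cell, of these 4 only Snhg1 was still called. There Malat1 was at a log2 fold change of 0.42 (adjusted p = 0.301, edgeR), and the values of Gas5 and Snhg12 turned below 0, also not called. The per-cell scale takes deposited counts with no scaling for depth. RNA content of the cells and the depth or capture of a library cannot be told apart on it. In the test (edgeR, adjusted p over all 7753 genes), 3 of the 8 genes were higher and 1 was lower at an adjusted p below 0.05, and 4 were not called. Of all genes tested, 24.6% were called higher and 24.1% lower, so a call in itself was common. The median log2 fold change of the 8 was 0.48, beside −0.01 over all genes. Relative to all RNA in the library, the fold change was above 0 in every one of these genes but Snhg1.

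**Figure D1:**
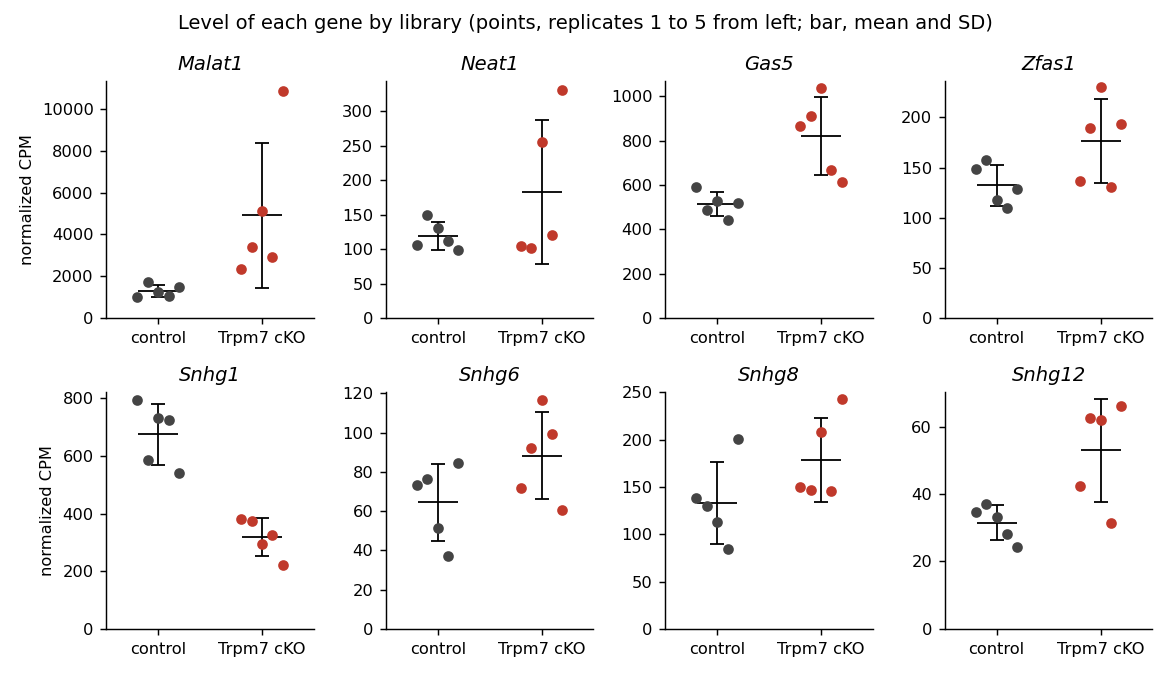
Normalized CPM of the 8 genes (y axis, linear, each panel with its own range) in 5 control (grey) and 5 Trpm7 cKO (red) libraries; each point is a library and the bars give mean and SD. Malat1 and Gas5 were higher in all 5 cKO libraries than in any control, Snhg1 was lower in all 5, and the other 5 genes overlapped.

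Malat1 was the most abundant of the 8 in each library and the only one past a log2 fold change of 1.5, a size that 8.49% of all genes reached upward with an adjusted p below 0.05. Its normalized level was 1021, 1713, 1240, 1047 and 1477 CPM in control replicates 1 to 5 and 2358, 3393, 5104, 2906 and 10830 CPM in cKO replicates 1 to 5. The lowest cKO library was above the highest control library, as for 16.6% of all genes. The log2 fold change was 1.91 (SE 0.394, adjusted p = 0.00194, edgeR), a 3.77-fold difference, and the exact permutation test of the normalized CPM gave p = 0.00794, the smallest that 5 against 5 libraries allow. The cKO libraries were uneven, with a coefficient of variation of 70.4% beside 22.7% in control. Without cKO replicate 5 the log2 fold change was 1.39 (adjusted p = 1.95e-05, edgeR).

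The deposited counts of Malat1, before any scaling, were 1027, 1659, 1156, 1043 and 1276 in control and 1276, 1844, 1397, 1754 and 1963 in cKO. These ranges overlapped, and the difference in means, 1232 ± 259 against 1647 ± 296 (SD, n = 5 each), gave p = 0.0635 in the exact permutation test. A cell number of 3000 thus gave a mean Malat1 count that was no lower in cKO than in control. For 54.1% of all genes tested, all 5 cKO counts were below all 5 control counts, and for 2.1% they were all above. The cKO library with the fewest counts in all, replicate 5 with 205980, had the most Malat1 counts (1963), whereas replicate 3, next lowest in total with 292061, had 1397, the second lowest of the 5.

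Neat1, whose long form is the paraspeckle scaffold, did not pass the test. A count per gene does not tell the long form from the other transcripts of Neat1. Its level was 105.4, 149.7, 130.8, 112.4 and 99.6 CPM in control and 105.3, 101.2, 255.8, 121.0 and 331.1 CPM in cKO. Replicates 3 and 5, the shallowest cKO libraries, stood above all controls, and the other 3 lay within the control range. The log2 fold change was 0.49 (SE 0.302, adjusted p = 0.20, edgeR), with 2 SE on either side reaching from −0.113 to 1.095. In deposited counts Neat1 was lower in every cKO library (55 to 73) than in any control library (86 to 145), as were 54.1% of all genes tested.

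Malat1 and Neat1 together made up 0.103% to 0.189% of control and 0.254% to 0.982% of cKO counts, and the 6 measured snoRNA hosts together 0.132% to 0.163% and 0.123% to 0.183%. Nearly all of the nuclear share was Malat1, at 0.0936% to 0.174% in control and 0.243% to 0.953% in cKO. The shares of Neat1 overlapped (0.00941% to 0.0152% and 0.0103% to 0.0291%), and so did those of the summed hosts, in which Gas5 and Snhg1 had fold changes of opposite sign. Within each library the ratio of Malat1 to Neat1 counts does not depend on any scaling. Its log2 was 3.42 ± 0.283 in control and 4.69 ± 0.334 in cKO (SD, n = 5 each), a difference of 1.26 (exact permutation p = 0.00794, adjusted p = 0.0202 over the 28 pairs of genes), and the groups did not overlap (3.21 to 3.88 and 4.31 to 5.06).

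**Figure D2:**
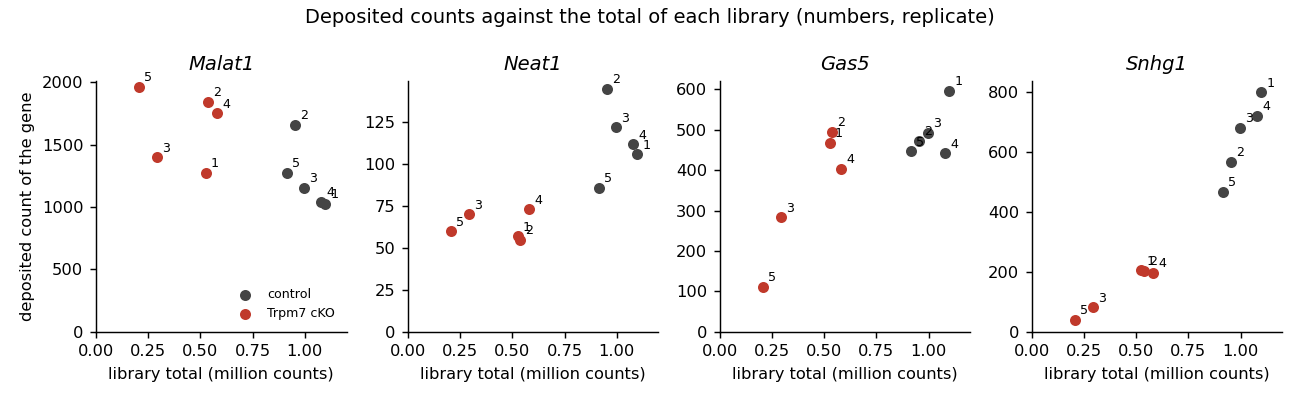
Deposited counts of Malat1, Neat1, Gas5 and Snhg1 (y axis, linear) against the total counts of the library (x axis, units of 1e6 counts) in control (grey) and Trpm7 cKO (red) libraries, with the replicate number beside each point. Malat1 counts were as high in the libraries of 205980 and 292061 counts as in control libraries, whereas Gas5 and Snhg1 counts were lowest there.

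CEL-Seq2 primes reverse transcription on poly(A), and Malat1 has no poly(A) tail at its mature end. A run of 12 A was found inside its longest annotated transcript, and a run at least as long in 18.7% of 1782 annotated transcripts of similar length. The longest run in Neat1 was 7. Which bases of Malat1 were read cannot be seen in a table of counts per gene.

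Other values moved with Malat1. The share of mitochondrial reads was lower, and the leukocyte and endothelial marker sums were higher, in each cKO library than in any control library. Among cKO libraries, replicate 4 had the highest leukocyte sum (9170 CPM) and a Malat1 level of 2906 CPM, whereas replicate 5 had a leukocyte sum of 7408 CPM, the highest endothelial sum (708.8 CPM) and 10830 CPM of Malat1, and replicate 2 had the lowest leukocyte sum (2071 CPM) and 3393 CPM of Malat1. With the mean leukocyte level as a covariate, the log2 fold change of Malat1 was 0.40 (adjusted p = 0.854, edgeR), in a fit whose leukocyte sums do not overlap between the genotypes. With every library thinned to 205980 counts, the log2 fold change of Malat1 was 2.01 (adjusted p = 0.000799, edgeR), beside 1.91 at full depth. Whether RNA quality or cell composition has a part in the Malat1 result was not tested.

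Among the snoRNA hosts, Snhg1 fell on each scale and Gas5 rose on the TMM scale but not per sorted cell. Gas5, named for its accumulation in growth-arrested cells, was at 592.7, 488.4, 527.7, 443.7 and 517.5 CPM in control and 864.8, 910.9, 1038, 667.7 and 612.5 CPM in cKO. All cKO libraries were above all controls, as for 16.6% of all genes. The log2 fold change was 0.68 (SE 0.152, adjusted p = 0.00107, edgeR; exact permutation p = 0.00794).

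Snhg1, which carries a set of box C/D snoRNAs, was at 793.5, 585.5, 730.4, 722.8 and 540.6 CPM in control and 380.6, 375.4, 296.0, 326.4 and 220.7 CPM in cKO. All cKO libraries were below all controls, as for 17.9% of all genes. The log2 fold change was −1.05 (SE 0.159, adjusted p = 1.95e-05, edgeR; exact permutation p = 0.00794), that is, 0.482 of the control level. In deposited counts Snhg1 went from 647 ± 131 to 146 ± 79.1 (SD, n = 5 each), 22.5% of the control mean, the lowest percentage of the 8 genes. Gas5 kept 71.9% of its control count and the other hosts 55.8% to 69.5%.

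The pair exchanged rank. Gas5 had fewer counts than Snhg1 in each of the 5 control libraries (596 against 798, 473 against 567, 492 against 681, 442 against 720 and 447 against 467) and more in each of the 5 cKO libraries (468 against 206, 495 against 204, 284 against 81, 403 against 197 and 111 against 40). These are counts of 3′-end molecules, to which transcript length does not contribute. The log2 ratio of Gas5 to Snhg1 was −0.38 ± 0.239 in control and 1.35 ± 0.297 in cKO (SD, n = 5 each). The difference was 1.73 (exact permutation p = 0.00794, adjusted p = 0.0202 over 28 pairs). Both genes had already separated in normalized CPM, in opposite directions. A separated ratio follows from that and is no further test.

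**Figure D3:**
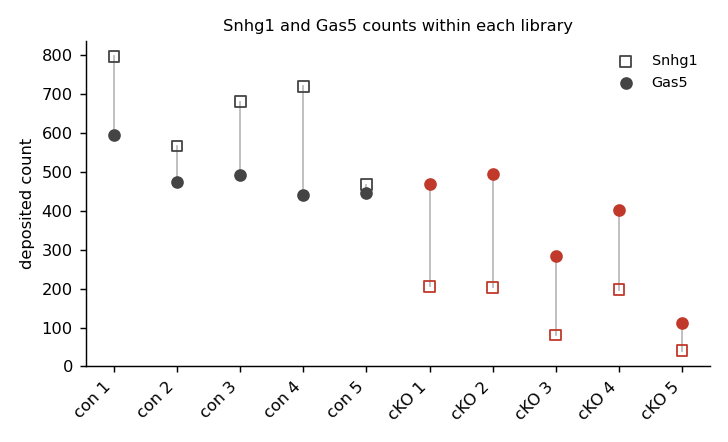
Deposited counts (y axis, linear) of Snhg1 (open squares) and Gas5 (filled circles) in each of the 5 control (con, grey) and 5 Trpm7 cKO (red) libraries (x axis); a line joins the values of a library. The square is above the circle in all control libraries and below it in all cKO libraries.

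The ratios were computed for all 28 pairs of the 8 genes, and pairs that share a gene are not independent. All 7 pairs with Snhg1 had an adjusted p of 0.0202, with Snhg1 on the lower side in cKO. So had 4 more pairs with Malat1, those with Neat1, Zfas1, Snhg6 and Snhg8, by 1.23 to 1.32 on the log2 scale, and Malat1 against Gas5 (1.06) and Snhg12 (0.99) had an adjusted p of 0.0513. None of the 15 pairs without Malat1 and Snhg1 passed, and their smallest exact permutation p was that of Zfas1 against Snhg12 (difference −0.33, p = 0.0556, adjusted p = 0.111). Set against each other within a library, Gas5 and Zfas1 differed by 0.26 (adjusted p = 0.414) and Gas5 and Snhg12 by −0.07 (adjusted p = 0.945).

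Snhg12, whose introns hold both box H/ACA and box C/D snoRNAs, had the lowest mean level of the 8. Its level was 34.8, 37.2, 33.3, 28.1 and 24.3 CPM in control and 42.5, 62.6, 62.1, 31.5 and 66.2 CPM in cKO. All cKO libraries but replicate 4 were above all controls, and replicate 4 was within their range. The log2 fold change was 0.67 (SE 0.231, adjusted p = 0.0215, edgeR), from 12 to 36 counts per library. The call was lost without cKO replicate 2 (0.54, adjusted p = 0.089) or without cKO replicate 3 (0.60, adjusted p = 0.0525), in DESeq2 (0.60, adjusted p = 0.0759) and with no filter on low counts (0.47, adjusted p = 0.148). It held under 15 of the 23 alternatives that could be fitted.

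The remaining 3 hosts, Zfas1, Snhg6 and Snhg8, were not called. Zfas1, antisense at its start to Znfx1, was at 109.4 to 158.0 CPM in control and 130.9 to 230.2 CPM in cKO (log2 fold change 0.38, SE 0.172, adjusted p = 0.0756, edgeR). Snhg6 was at 37.1 to 84.5 and 60.7 to 116.9 CPM (0.47, SE 0.22, adjusted p = 0.0844, edgeR). Snhg8 was at 84.3 to 200.3 and 145.8 to 242.8 CPM (0.38, SE 0.208, adjusted p = 0.143, edgeR). In each of the 3 the genotypes overlapped, and 2 SE on either side of the log2 fold change reached from 0.03 to 0.72 for Zfas1, from 0.03 to 0.91 for Snhg6 and from −0.04 to 0.80 for Snhg8.

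The direction of all these genes but Malat1 and Snhg1 depended on what the counts are divided by. Taken per 3000 sorted cells with no scaling, the median of all genes was −1.15 on the log2 scale and 66.6% of all genes were called lower. On that scale Gas5 was at −0.48 (adjusted p = 0.234), Snhg12 at −0.52 (adjusted p = 0.21) and Malat1 at 0.42 (adjusted p = 0.301), none of them called, and 4 of the 8 were called lower: Snhg1 (−2.15), Neat1 (−0.86), Zfas1 (−0.84) and Snhg8 (−0.84). The summed MuSC identity genes were themselves at 3831 to 4630 CPM in control and 4392 to 7366 CPM in cKO, with 14 of 22 tested called higher. Scaled on that sum, where the median of all genes was −0.35, Malat1 was the 1 gene of the 8 called higher (1.56), as were 14.4% of all genes. Gas5 and Snhg12 were at 0.30 each and not called, and Snhg1 was at −1.42. A change of scaling shifts all genes by nearly the same amount, so values measured from the median of all genes change little by construction. They were taken over these 2 scalings, RLE factors, totals alone and TMM before the filter. Gas5 lay 0.66 to 0.68 above the median and Snhg1 1.00 to 1.06 below it. Malat1 lay 1.57 to 1.91 above it and Snhg12 0.63 to 0.67 above it. The genes not called with TMM factors also stayed above it, Neat1 by 0.29 to 0.53 and Zfas1 by 0.32 to 0.38. Snhg6 did so by 0.47 to 0.49 and Snhg8 by 0.31 to 0.40.

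**Figure D4:**
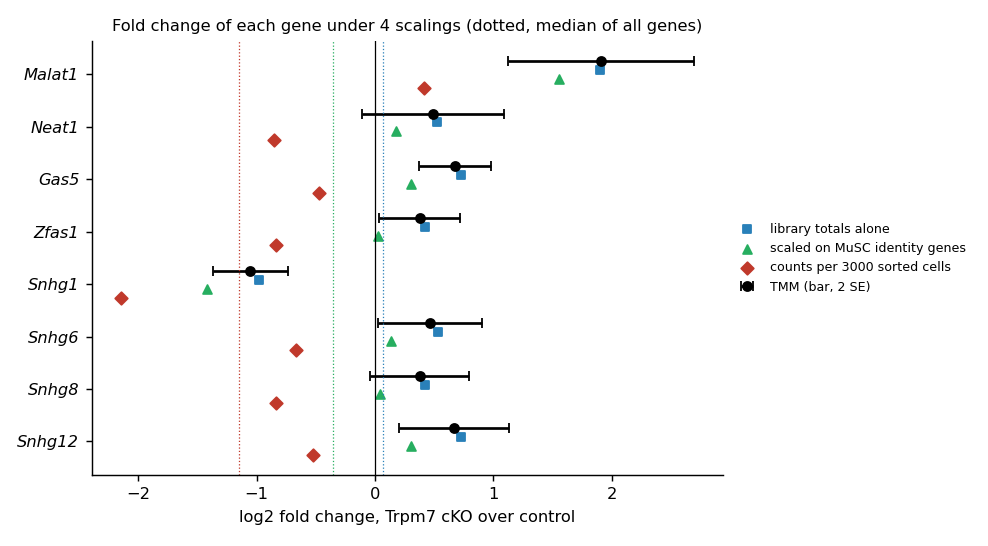
Log2 fold change of Trpm7 cKO over control (x axis) for the 8 genes (y axis) with TMM factors (black, bars 2 SE), library totals alone (blue), scaling on MuSC identity genes (green) and counts per 3000 sorted cells (red); dotted lines mark the median of all genes under the last 3. Under counts per sorted cell Malat1 alone was above 0 and Snhg1 was farthest below.

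The snoRNAs themselves are too short and lack the poly(A) that this method reads. The entries named Snora, Snord or Scarna summed to 16 to 19 counts in control and 7 to 15 in cKO libraries, too few to follow any of them, so the values above are those of the host RNAs.

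Other lncRNA genes were examined for comparison, beside the shares over all genes tested, 24.6% called higher and 24.1% lower. Of 15 other snoRNA host lncRNAs, 8 were tested, 3 of them higher and 3 lower, with a median of −0.19. Snhg15 rose most (35.3 ± 7.02 to 165.9 ± 51.4 CPM; log2 fold change 2.21, SE 0.23, adjusted p = 3.58e-07, edgeR), from 26 to 43 counts in control and 31 to 120 in cKO libraries. Snhg5 fell (127.3 ± 28.4 to 46.1 ± 8.49 CPM; −1.46, SE 0.197, adjusted p = 5.39e-06, edgeR), Snhg4 fell (−0.95, adjusted p = 6.2e-05) and Snhg20 fell (−0.74, adjusted p = 0.0411, a call lost in 7 of the 10 fits without 1 library). Rian, from the imprinted Dlk1-Meg3 locus, rose by 2.16 and Epb41l4aos by 0.89, the latter turning to −0.27 (adjusted p = 0.521) per sorted cell. Rian, with 7 to 24 counts in control and 13 to 34 in cKO libraries, passed the filter through the cKO libraries. Its call is therefore not independent of the filter. Snhg14 and Snhg17 were not called.

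The called host genes lay on both sides, as did the called genes among all genes tested (24.6% higher and 24.1% lower). Snhg1, Snhg4, Snhg5 and Snhg20 were lower and Gas5, Snhg12, Snhg15, Rian and Epb41l4aos higher on the TMM scale, from −1.46 to 2.21. Snhg1 and Snhg5 were also at 22.5% and 16.3% of their control counts, and Snhg15 at 204.8% (exact permutation p = 0.0397).

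Of 27 further lncRNA genes, 13 were tested, 5 of them higher and 3 lower (median 0.29), beside 24.6% and 24.1% of all genes. Meg3, an imprinted lncRNA, rose most (58.6 ± 27.3 to 579 ± 319 CPM; log2 fold change 3.26, SE 0.439, adjusted p = 0.000121, edgeR), and H19, an imprinted lncRNA of growing and fetal tissue, fell most (409.6 ± 144 to 62.4 ± 17.9 CPM; −2.65, SE 0.247, adjusted p = 1.89e-07, edgeR). Pvt1 (1.63), Morrbid (1.41), Dnm3os (1.40) and Mir22hg (0.85) were also higher on the TMM scale. Per sorted cell these 4 calls were lost, with Pvt1 at 0.49 (adjusted p = 0.241), Morrbid at 0.26 (adjusted p = 0.544), Dnm3os at 0.21 (adjusted p = 0.659) and Mir22hg at −0.33 (adjusted p = 0.417), and 1 of the 5 calls upward was left. Mir17hg, host of a microRNA cluster of proliferating cells, was lower (−0.997, adjusted p = 0.00422) and so was Kcnq1ot1 (−0.57, adjusted p = 0.0147). Dnm3os (3 to 14 counts in control, 6 to 12 in cKO) passed the filter through its level in cKO libraries. Mir17hg (24 to 33 and 2 to 11 counts) passed through the control libraries. The calls of Dnm3os and Mir17hg are therefore not independent of the filter. Meg3, unlike Malat1, was also above all controls in deposited counts (165 to 254 against 24 to 88), as were 2.1% of all genes.

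**Figure D5:**
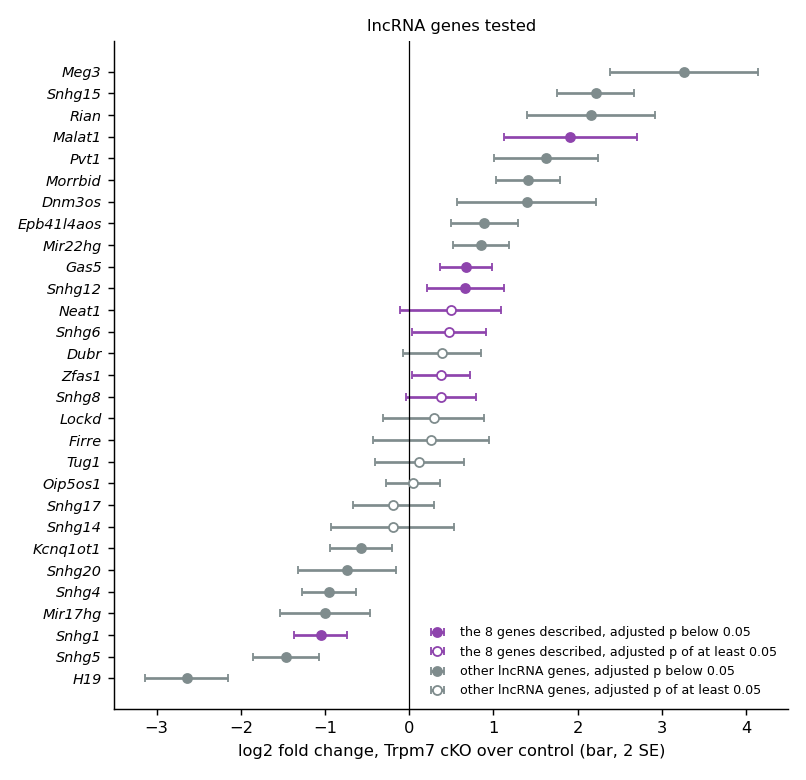
Log2 fold change of Trpm7 cKO over control (x axis, bars 2 SE, 5 libraries per group) for the 8 genes (purple) and 21 other tested lncRNA genes (grey), ordered by value; filled points passed an adjusted p below 0.05. Meg3 (3.26) and H19 (−2.65) are at the ends, Malat1 is next below Rian (2.16) and Snhg1 lies between Mir17hg (−0.997) and Snhg5 (−1.46).

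Protein-coding genes of the same pathways are given beside the shares of all genes tested, 24.6% called higher and 24.1% lower; the lists are short, and counts near those shares set no list apart. Of 37 tested protein-coding snoRNA hosts, 10 were higher and 10 lower (median 0.16). The ribosomal protein genes Rpl13 (1.26, SE 0.227, adjusted p = 0.000197) and Rpsa (1.06, adjusted p = 0.0038) were the highest, and Rpl5 (−1.33, SE 0.202, adjusted p = 1.95e-05) and the chaperonin subunit gene Tcp1 (−1.28, adjusted p = 6.03e-05) the lowest.

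Of 16 tested genes for proteins that bind, process or assemble snoRNAs, 1 was higher and 4 were lower (median 0.00). The box C/D core protein gene Nop58 rose by 0.55 (adjusted p = 0.00983), and Ruvbl2, of the assembly machinery (−0.66, adjusted p = 0.00949), and Nop10, of the box H/ACA particle (−0.61, adjusted p = 0.0073), fell. Of 15 tested NMD genes, 3 were higher and 6 lower (median −0.01). The endonuclease gene Smg6 rose by 1.33 (adjusted p = 0.000618) and Upf3a by 0.68 (adjusted p = 0.00775), while Smg8 fell by 1.35 (adjusted p = 0.00194) and the cap-binding gene Ncbp1 fell by 1.12 (adjusted p = 2.99e-05).

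Of 16 tested paraspeckle protein genes, 2 were higher and 6 lower (median −0.27). Nono rose by 0.53 (adjusted p = 0.019) and Hnrnph1 by 0.50 (adjusted p = 0.00415), whereas Dazap1 fell by 0.97 (adjusted p = 7.53e-05) and Rbm14 fell by 0.82 (adjusted p = 0.000553). Of 20 tested nuclear speckle genes, 3 were higher and 4 lower (median 0.00). The splicing factor gene Srsf5 rose by 1.31 (adjusted p = 5.98e-06) and the kinase gene Clk1 by 0.91 (adjusted p = 0.000184), and U2af2 fell by 1.19 (adjusted p = 1.39e-06) and Srsf1 fell by 0.70 (adjusted p = 0.000421). The lists of marker genes had larger medians. Of 29 tested leukocyte markers, 28 were higher and none lower (median 3.20), and 4 of 4 endothelial markers were higher (median 3.61). Of 8 fibroadipogenic markers, 6 were higher and 1 lower (median 1.85), and of 22 MuSC identity genes 14 were higher and 3 lower (median 0.73). Only 29 of 40 leukocyte and 4 of 12 endothelial markers passed the filter. A marker such as Ccr2 (1 to 5 counts in control, 10 to 63 in cKO) passed through the cKO libraries. The shares called higher are therefore not independent of the filter.

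Nearest tested genes on either side were set beside several of these genes. Snhg1 lies head to head with Slc3a2, the heavy chain of amino acid transporters, with 106 bases between them, and Slc3a2 was also lower (514 to 286.5 CPM; −0.81, SE 0.168, adjusted p = 0.000507, edgeR). Zfas1 overlaps the start of Znfx1 by 82 bases on the opposite strand, and Znfx1 was higher (18.2 to 45.6 CPM; 1.36, SE 0.288, adjusted p = 0.000606, edgeR). Snhg12 and Trnau1ap, 739 bases apart on opposite strands, were both higher, the latter by 0.76 (adjusted p = 0.0464, edgeR). The nearest genes on their other sides had other signs: Taf12, beside Snhg12, was lower (−0.51, adjusted p = 0.0332, edgeR), and Stx5a, beside Snhg1, was at 0.58 (adjusted p = 0.0516, edgeR). On the outer sides of Malat1 and Neat1, Ehbp1l1 was at −0.54 (adjusted p = 0.017) and Dpf2 at −1.28 (adjusted p = 1.37e-05). The strand setting of the counting is not given in the sources used here, so reads of overlapping genes on opposite strands may not be separated. Rcc1, which overlaps Snhg3 on the same strand, was at −1.70 (SE 0.226, adjusted p = 5.53e-06, edgeR), and whether its entry holds reads of Snhg3 was not tested.

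With deviations from the genotype means pooled over both genotypes, more Malat1 went with more Neat1 and less Snhg1. No r was computed for a genotype alone. Control replicate 5, with 1477 CPM of Malat1, had the lowest Neat1 of the controls (99.6 CPM). Over the deviations of log2 CPM from the genotype means in 10 libraries, Pearson's r was 0.88 between Malat1 and Neat1 and −0.90 between Malat1 and Snhg1, with a range of −0.90 to 0.88 and a median of 0.36 over the 28 pairs. These values are a description, as the libraries share depth and composition with every gene in them. The genes whose deviations were most like those of Malat1 were Golga4 (r = 0.97), Tle3 (0.97) and Rbm25 (0.96), none of them called between genotypes. For Neat1 they were Ubap2l (0.98), Tacc2 (0.96) and Akt1s1 (0.95), for Gas5 Gfer (0.94), Dok7 (0.93) and Tmem115 (0.93), and for Snhg1 Mmadhc (0.97), S100a11 (0.97) and Pdha1 (0.96).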

How the data were processed

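Sorted MuSCs had been lysed and turned into CEL-Seq2 libraries, which read the 3′ end of polyadenylated RNA and tag each molecule with a unique molecular identifier (UMI). The authors extracted UMIs with UMI-tools 1.1.4, trimmed reads with Trim Galore 0.6.10, aligned them to GRCm38 with HISAT2 2.2.1, assigned them to genes with featureCounts 2.0.6 and removed UMI duplicates. The deposited counts are whole numbers of molecules per gene, not normalized. The annotation release and strand setting are not given in the sources used here. Columns of the table matched the labels of the 10 libraries. Where a symbol stood on 2 lines (12 entries), the line with the larger total was used.

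Genes were kept by filterByExpr (minimum count 10, minimum total 15) and compared with edgeR 4.0.16 in R 4.3.3 by a robust quasi-likelihood F test with TMM factors, genotype as the only term and Benjamini-Hochberg adjustment over 7753 genes. Normalized CPM are counts scaled to 1e6 of the TMM-adjusted totals. Single values were compared by two-sided exact permutation tests over all 252 splits. Ratios used a pseudocount of 0.5. The p-values cover the spread between these libraries, and the labels of cKO replicates 4 and 5 share a number whose meaning is not stated. No 2 libraries of the same genotype agreed within counting noise. The code was tested on simulated counts.

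Named were all 9 genes, other lncRNAs that passed the filter, the 2 highest and 2 lowest called genes of each other list, the nearest tested neighbours (not all reported here), and the 3 genes most alike for Malat1, Neat1, Gas5 and Snhg1. The genes and lists were chosen with earlier results of these data known, and ratios of gene pairs and the tests of unscaled counts after the values were seen. Alternatives were DESeq2 1.42.0, limma-voom 3.58.1, other scalings and filters, thinning, a replicate block, a leukocyte covariate and libraries left out or summed. In the last 500 bases of the longest transcripts, none of the 8 measured genes shared 31 bases with transcripts of genes other than their own snoRNAs.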

Additional observations from a re-analysis of the deposited data

Results flagged for a closer look

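In 44 groups of 5 libraries (the 8 genes and the called other lncRNAs, by genotype), 4 had a highest or lowest library separated from the next by more than 0.71 of the range, a screen that chance passes in about 1 of 20 groups. Dnm3os was at 66.2 CPM in cKO replicate 5, with the next library at 21.9 CPM. Rian was at 132.4 CPM in the same library, with the next at 62.6 CPM, and at 24.8 CPM in control replicate 2, with the next at 10.7 CPM. Morrbid was at 19.7 CPM in control replicate 5, the lowest, with the next at 30.1 CPM. The cause was not tested. None of the 8 genes was among them.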

How the results depend on the processing

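Malat1 and Snhg1 kept their direction under all 24 alternatives, with ranges of 0.40 to 2.07 and −2.15 to −0.34, and the call under 22 and 23 of them. Gas5 kept its direction under 23 and its call under 21, and Snhg12 kept its direction under 22 of 23 and its call under 15. Of the 8 genes, 3 were higher and 1 lower with TMM factors. The number higher was 1 with scaling on MuSC identity genes, 0 per sorted cell and 0 with the leukocyte covariate, and the number lower was 4 and 0 under the last 2. Leaving out 1 library gave 2 to 5 higher, with 5 without control replicate 5, when Snhg6 and Snhg8 passed, and 1 lower each time. Signs turned per sorted cell, a scale on which the median gene was at −1.15, for Neat1 (−0.86), Gas5 (−0.48), Zfas1 (−0.84), Snhg6 (−0.67), Snhg8 (−0.84), Snhg12 (−0.52), Epb41l4aos (−0.27) and Mir22hg (−0.33). With the leukocyte covariate they turned for Neat1 (−0.81) and Snhg8 (−0.44). The cause was not tested for either. With the covariate Snhg1 was at −0.34 (adjusted p = 0.681, edgeR), Gas5 at 1.197 (adjusted p = 0.0602, edgeR) and Snhg12 at 1.32 (adjusted p = 0.168, edgeR).

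TMM factors from all entries, added after the data were seen, put the median gene at −0.20 and Snhg12 at 0.47 (adjusted p = 0.0907, edgeR), and changed the split of all genes from 24.6% higher and 24.1% lower to 19.3% and 32.7%. This split was 14.4% and 35% with MuSC scaling, 4.9% and 66.6% per sorted cell and 5.47% and 1.96% with the leukocyte covariate. Snhg12 had too few counts to be tested after thinning to 205980 counts per library. Samples of the same replicate number did not deviate together (r from −0.12 to 0.18), and the labels name no pairing. With the replicate block, Malat1 was at 1.71, Gas5 at 0.66, Snhg1 at −1.08 and Snhg12 at 0.66, all called, and Snhg8 passed (0.44, adjusted p = 0.0404, edgeR), so 4 were higher and 1 lower. Depth limits the genes of few counts, among them Snhg12 (12 to 36 counts per library) and Snhg6 (11 to 74).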
